A study of Homo sapiens with 4 samples.

Results

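The members described here are 976 p63 ChIP-seq peaks of HSC-5 cells that lay between protein-coding genes, more than 2 kb and at most 100 kb from the nearest one. They were 23.9% (Wilson 95% interval 22.7 to 25.3) of the 4077 peaks that the authors called in p63 immunoprecipitate (IP) replicate 1. They were chosen by position alone, from the summit of each peak on chromosomes 1 to 22 and X and the gene spans of RefSeq GRCh38.p14. The widest gene-free interval of each chromosome was left out. Of the other peaks, 1655 had a summit inside a gene, 95 lay up to 2 kb from one, 631 lay over 100 kb away, 608 lay in the widest gene-free intervals and 112 lay on other contigs or on Y. Just inside the 2 kb limit, members lay 2004, 2084 and 2098 bp from a gene with folds of 15.57, 25.28 and 15.88, and just outside it peaks lay 1937, 1912 and 1889 bp away with folds of 25.95, 18.17 and 25.13. Just inside the 100 kb limit, members lay 99786, 99588 and 99523 bp away with folds of 12.57, 11.07 and 18.85, and just outside it peaks lay 100324, 100406 and 100449 bp away with folds of 15.76, 12.98 and 11.23.

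HSC-5 is an established human line from a squamous cell carcinoma of the skin. The study held 4 libraries, 2 p63 IPs made with a p63 antibody and 2 inputs without antibody, all from cells grown alike and fixed with 1% formaldehyde, with no second condition. Only the peak lists of both IPs entered the analysis. Nothing in the labels ties the replicates to separate cultures, so their differences may be technical.

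p63, a relative of p53, is a lineage-defining transcription factor of stratified epithelia, where it keeps basal keratinocytes in their proliferative state. It binds as a tetramer to the same kind of paired DNA element as p53. Many of its known sites in keratinocytes lie in distal enhancers rather than at gene starts, and the genes they act on need not be the nearest ones.

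A few members reached the start of a long non-coding RNA (lncRNA) gene, and these are the places where the DNA under a peak can be shown. RefSeq promoter windows of 300 bases, 250 before to 50 after the start, were at hand for 4156 lncRNA starts in the sequence open to members, and 7 of them (0.168%) were overlapped by a member peak. In 3 of the 7 windows the summit itself fell within the window. The stretches below are the parts of 5 such windows that lie under the peak, printed 5′ to 3′ on the strand of the lncRNA, from RefSeq GRCh38.p14. They are shown because they carry the best matches to the p53-family response element, a consensus of 20 bases that reads the same on both strands, or, for LINC02846, because it lies under the member of highest fold. Capitals mark the best match in the window. The LNCTAM34A stretch is chr1:9182058-9182253 on the plus strand, LOC124904092 is chr17:82384597-82384873 plus, LOC101928126 is chr21:33976132-33976305 plus, LOC124902629 is chr11:10899489-10899583 minus and LINC02846 is chr9:136109557-136109686 minus.
LNCTAM34A: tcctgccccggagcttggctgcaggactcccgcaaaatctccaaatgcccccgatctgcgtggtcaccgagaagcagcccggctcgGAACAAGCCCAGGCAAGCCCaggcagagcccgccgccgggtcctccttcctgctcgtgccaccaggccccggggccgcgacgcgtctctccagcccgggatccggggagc
LOC124904092: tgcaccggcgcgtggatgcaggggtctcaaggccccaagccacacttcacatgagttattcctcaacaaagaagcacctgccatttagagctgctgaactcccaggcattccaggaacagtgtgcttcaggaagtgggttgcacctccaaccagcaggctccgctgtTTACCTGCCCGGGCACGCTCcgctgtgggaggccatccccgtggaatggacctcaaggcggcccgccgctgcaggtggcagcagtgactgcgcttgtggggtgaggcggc
LOC101928126: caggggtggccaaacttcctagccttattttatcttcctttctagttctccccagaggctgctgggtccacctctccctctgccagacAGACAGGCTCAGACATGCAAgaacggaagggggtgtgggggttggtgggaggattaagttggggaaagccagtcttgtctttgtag
LOC124902629: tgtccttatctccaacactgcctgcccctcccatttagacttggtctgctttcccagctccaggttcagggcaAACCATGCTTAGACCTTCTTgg
LINC02846: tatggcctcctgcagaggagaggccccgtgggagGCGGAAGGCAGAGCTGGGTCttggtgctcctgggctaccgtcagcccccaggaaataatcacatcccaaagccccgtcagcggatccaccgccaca

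The LNCTAM34A window held GAACAAGCCCAGGCAAGCCC, which fits the consensus at 20 of 20 bases. Its centre lay 4.5 bases from the summit, and the summit lay 55 bases upstream of the start. Of all 34943 promoter windows in the RefSeq table, 0.0172% held a 20 of 20 match, as did 0.0388% of the lncRNA windows. LOC124904092, whose peak has 13 tags and a fold of 25.95, had a 16 of 20 match 6.5 bases from the summit, and 26.0% of all windows hold 16 or more. LOC101928126, with 12 tags and a fold of 25.95, had a 17 of 20 match 29.5 bases from the summit, and LOC124902629, with 16 tags and a fold of 20.82, one 178.5 bases away; 5.20% of all windows hold 17 or more. The best match in the LINC02846 window reached 14 of 20, as 97.4% of all windows do, and lay 199.5 bases from the summit. That summit lay 406 bases upstream of the start, and the summit at LOC124902629 lay 346 bases upstream, both outside their windows. The DNA at both summits is therefore not shown and was not searched. The short motif CATG, common at the centre of p53-family sites and the same on both strands, was present in 6 of the 7 windows, against 64.1% of all lncRNA windows, and lay under the peak itself in 3 of the 7. A match is a description of letters, and these windows were singled out after their values were seen.

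The peak at LNCTAM34A (chr1:9182058-9182267) had 9 tags (exact Poisson 95% interval 4.12 to 17.1) and a fold of 17.33 in replicate 1 and no matched peak in replicate 2. Its summit also lay inside MIR34AHG, which runs on the other strand and hosts miR-34a, a microRNA known as a direct p53 target that restrains the cell cycle. The MIR34A hairpin lay 30.372 kb from this peak. A second member, at chr5:55180133-55180326 near CDC20B, lay 7.892 kb from MIR449C, 9.503 kb from MIR449B and 9.623 kb from MIR449A. Its tag count was 9 in replicate 1 (fold 11.99) and 6 in the matched peak of replicate 2. The mature forms, from RefSeq, are given with the seed (bases 2 to 8) in capitals, since miR-449 belongs to the same seed family as miR-34.
hsa-miR-34a-5p: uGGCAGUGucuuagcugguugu
hsa-miR-449a: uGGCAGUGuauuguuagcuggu
hsa-miR-449b-5p: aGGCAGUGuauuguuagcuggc
hsa-miR-449c-5p: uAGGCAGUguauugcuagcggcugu
The first 3 share the seed GGCAGUG, and in miR-449c-5p the same letters begin 1 base later. In all, 12 of the 1562 hairpins in the RefSeq table lay within 10 kb of 11 members, and miR-34a was named after its values were seen.

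Peaks were called in each replicate by itself, and tag counts are whole numbers of IP reads kept after duplicates were removed. The fold is the authors' ratio of IP to local control, and the score is their minus 10 times log10 of the caller's p-value; both describe peaks within a list. Replicate 1 kept 12687447 IP tags, replicate 2 kept 868393 (6.84% of that), and the smallest peak held 8 tags in replicate 1 and 4 in replicate 2. The 2 lists appeared to number their bases differently, so replicate 2 peaks were matched by the recurrence of the same summit offset in neighbouring pairs. Amplified reads are not independent molecules, so all intervals given cover counting error only.

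Members resembled the peaks inside genes in strength. Their fold ranged from 3.57 to 99.67, with a median of 14.66 and quartiles of 12.05 and 18.17. Peaks inside genes had a median fold of 14.59, those up to 2 kb away 15.57, those over 100 kb away 13.18 and those in the widest gene-free intervals 7.68. The median member held 10 tags over 242 bp, and 275 members (28.2%) sat at the minimum of 8 tags, where the exact Poisson interval runs from 3.45 to 15.8 tags. A fold of 20 or more was reached by 199 members (20.4%, 18.0 to 23.0), by 312 peaks inside genes (18.9%, 17.0 to 20.8), by 27 peaks up to 2 kb away (28.4%, 20.3 to 38.2) and by 48 peaks over 100 kb away (7.61%, 5.79 to 9.94). Members therefore held strong peaks in a larger share than the far intergenic peaks, with intervals that do not overlap, and in a share close to that inside genes. No test was run over peaks, which are not replicates.

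Strong members were densest close to genes, while the weak majority was spread almost evenly. The sequence open to members measured 753 Mb and held 1.30 members per Mb (exact Poisson interval 1.22 to 1.38), next to 1.31 per Mb inside genes, 1.64 up to 2 kb from them and 0.834 (0.770 to 0.902) beyond 100 kb. By distance, the density was 1.62 per Mb (1.33 to 1.94; 114 members) at 2 to 5 kb, 1.27 (1.05 to 1.52) at 5 to 10 kb, 1.41 (1.22 to 1.63) at 10 to 20 kb, 1.23 (1.10 to 1.38) at 20 to 50 kb and 1.20 (1.06 to 1.36; 254 members) at 50 to 100 kb. These 5 intervals overlap their neighbours. For the 160 members with a score of 100 or more, the density was 0.411 per Mb (0.276 to 0.591) at 2 to 5 kb, stayed between 0.225 and 0.229 from 5 to 50 kb, and was 0.113 (0.0726 to 0.169) at 50 to 100 kb. The nearest and farthest bins did not overlap there, and beyond 100 kb the same kind of peak came to 0.0661 per Mb (0.0491 to 0.0872). Across members, distance had a Spearman rho of -0.12 with fold, -0.08 with tags and -0.01 with width, a description over 976 peaks of 1 library.

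**Figure D1:**
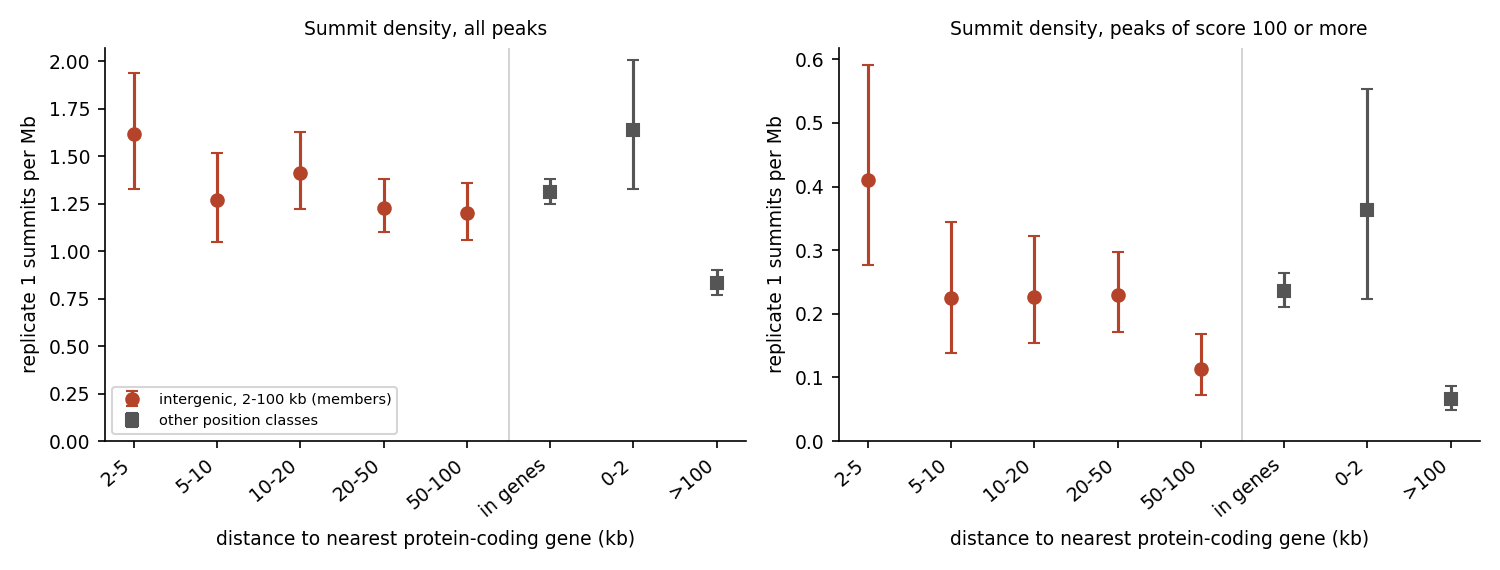
Replicate 1 summits per Mb of sequence by distance to the nearest protein-coding gene (kb), for all peaks (left) and for peaks of score 100 or more (right), with exact Poisson 95% intervals. Circles are the members and squares the other position classes; the strong members run from 0.411 per Mb at 2 to 5 kb to 0.113 at 50 to 100 kb.

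Members lay on both sides of genes. The strand of the nearest gene was known for 749 members, of which 428 were on its 5′ side, at 1.33 per Mb (1.20 to 1.46), and 321 on its 3′ side, at 1.18 per Mb (1.06 to 1.32). The intervals of both sides overlap. Between divergent gene pairs the density was 1.27 per Mb (1.09 to 1.47), between tandem pairs 1.26 (334 members) and between convergent pairs 1.13 (0.931 to 1.37). Their intervals overlap. In intervals of unknown orientation, which held 356 of the members, the density was 1.41 (1.27 to 1.57), and 79.2% of protein-coding genes had a strand in the table. Intervals of chromosome 8 were among these, including those of a group of members with low folds described below.

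The 20 members of highest fold were all above 39, and 18 of them lay within 50 kb of a gene. The highest was the peak at LINC02846 (chr9:136109557-136109966), between TMEM250 and NACC2, with 64 tags (49.3 to 81.7) and a fold of 99.67 in replicate 1, matched by 16 tags in replicate 2. A second member lay 1302 bp from it, inside LINC02846, with 29 tags and a fold of 49.72. Other leaders were nearest to DCP1A, an mRNA decapping factor (34 tags, fold 67.48), LCA5, a cilium gene (42 tags, fold 64.36), and DLX2, a homeobox factor 94.251 kb away (37 tags, fold 61.88). The first 2 of these were not matched in replicate 2, and the DLX2 member was matched by 6 tags. The authors' deposited table carries a hand-written remark on 5 members: H3K27Ac, a histone mark of active enhancers, at the strongest LINC02846 peak and at the DCP1A and LCA5 members, linc02846 at the second peak there, and a minus sign at the member near NF1.

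Several of the strongest members were matched to a replicate 2 peak by summit offset. The member 44.274 kb from SYK, a tyrosine kinase gene, had 64 tags in replicate 1 and 11 in replicate 2, with a fold of 57.63. The member 13.465 kb from PTPN1, a tyrosine phosphatase gene, had 51 and 21 tags and a fold of 42.5. The member 22.647 kb from NF1, which encodes the RAS GTPase activator neurofibromin, had 49 and 6 tags and a fold of 46.29. All 3 had more tags in replicate 1, the deeper library. The member 32.032 kb from SPTLC1, a subunit of the enzyme that starts sphingolipid synthesis, had 48 and 14 tags (fold 44.08). The member 8.453 kb from PSAT1, an enzyme of serine synthesis, had 38 and 8 tags (fold 42.35). The member 42.45 kb from HNRNPA3, an RNA-binding protein gene, had 53 and 9 tags (fold 54.9), and that 18.308 kb from FUBP3 had 33 and 6 tags (fold 39.75). The member 7.818 kb from FRMD8 lay only 1.455 kb from NEAT1, the lncRNA of nuclear paraspeckles, and had 36 and 13 tags (fold 39.14). FAT2, an epithelial atypical cadherin gene, had a pair of members 1857 bp apart with 26 and 11 tags (folds 42.35 and 10.39), neither of them matched.

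**Figure D2:**
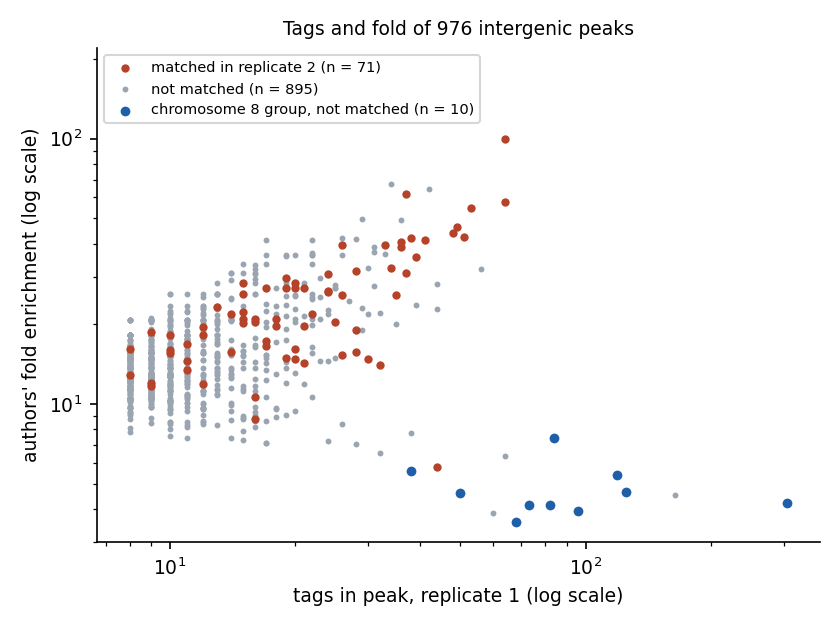
Tags in the replicate 1 peak (x, log scale) against the authors' fold enrichment (y, log scale) for the 976 members, each a point. Red points are the 71 matched in replicate 2 and blue points the 10 members of a chromosome 8 group; matched members gather at high tags with high fold, and the blue points lie at folds of 3.57 to 7.43.

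High tag counts came with 2 very different folds. Of the 17 members with 50 tags or more, 5 had folds of 32.16 to 99.67 and 4 of these were matched. The other 12 had folds of 3.57 to 7.43 and none was matched. Their widths reached 3783 bp, and only peaks under 1 kb wide could be matched. Of the 12, 9 belonged to a group of 10 members between bases 85650569 and 85823489 of chromosome 8, which had 38 to 305 tags, folds of 3.57 to 7.43 and no match. None of the 69 members on chromosome 8 was matched, so the lack of a match says little about this group. Another lay 30.531 kb from LTBP1 with 164 tags and a fold of 4.52. A low fold at so many tags goes with a high local control, against which the fold is taken, and the part of the control in these peaks was not tested. Without the chromosome 8 peaks the median fold was 14.7 and the matched share 7.35%.

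Among the 969 members under 1 kb wide, 71 (7.33%, Wilson interval 5.85 to 9.14) were matched in replicate 2, against 5.43% of all replicate 1 peaks of that width on the same chromosomes. The share was 6.30% (5.22 to 7.57) inside genes, 4.26% (1.67 to 10.4) up to 2 kb away, 3.55% (2.36 to 5.32) beyond 100 kb and 1.69% (0.891 to 3.18) in the widest gene-free intervals. The interval of the members overlaps that of peaks inside genes and not that of the farther peaks. These intervals take peaks as independent, but a match needs further matched pairs on its chromosome. They may therefore be too narrow, and no difference between classes was tested. Matching followed tags: 0.727% (0.200 to 2.61) of members with 8 tags were matched, 2.08% with 9 to 10, 9.74% with 11 to 20, 25.9% with 21 to 30 and 46.2% (31.6 to 61.4) with 31 or more. By distance, between 7.96% and 10.2% were matched in each bin up to 50 kb and 3.17% (1.62 to 6.14) at 50 to 100 kb. The median tag count was 9 in that last bin and 10 in the others, and its part in the lower share was not tested. Matched members had a median fold of 20.82 and 20 tags, against 14.285 and 10 tags in the 898 unmatched ones. Their replicate 2 peaks held 4 to 21 tags, with a median of 5, and 24 of the 71 sat at the minimum of 4. Over the 71 pairs, log2 tags had a Pearson r of 0.49 and a Spearman rho of 0.39, and log2 fold an r of 0.47 and a rho of 0.44, a description of 1 pair of libraries. How many pairs would recur by accident was not estimated here, and an unmatched member may be below the depth of replicate 2. Matching also needs further pairs of the same offset on the same chromosome, and matched members lay on only 15 chromosomes. An unmatched member on any other chromosome therefore shows little.

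**Figure D3:**
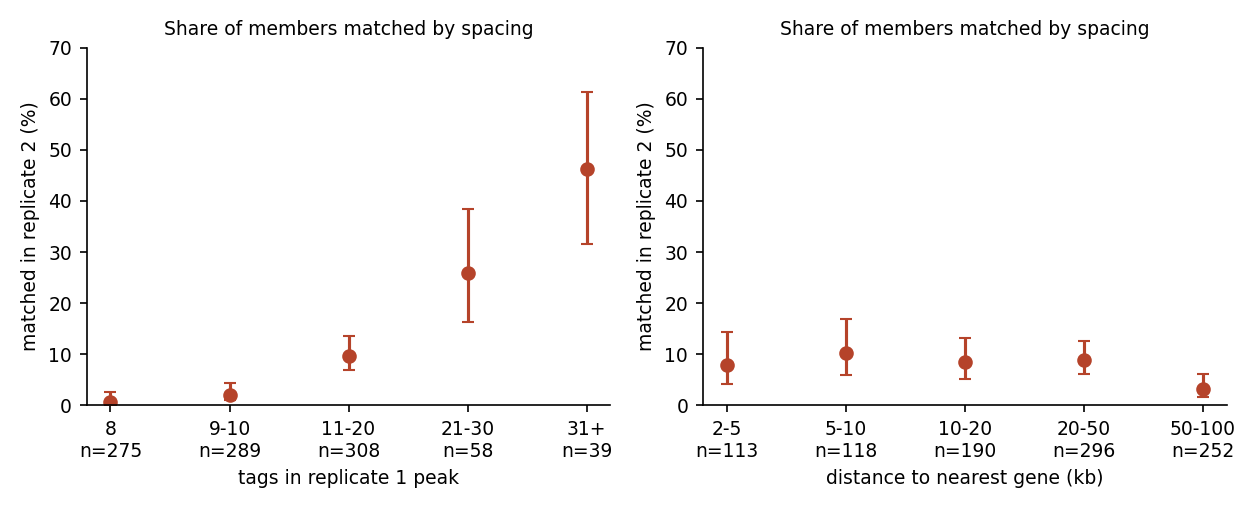
Share of members under 1 kb wide that were matched in replicate 2 (%), by tags in the replicate 1 peak (left) and by distance to the nearest gene in kb (right), with Wilson 95% intervals and the number of members under each point. The share climbs from 0.727% at 8 tags to 46.2% at 31 tags or more, while the distance bins up to 50 kb lie between 7.96% and 10.2%.

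Epithelial transcription factor genes had members near them in a larger share than genes at large, and so did several other lists. Of all 19974 protein-coding genes, 882 (4.42%) were the nearest gene of at least 1 member, and of the 377 genes on 14 lists 49 were, at 2.68 members per Mb (2.03 to 3.48). Among 35 epithelial transcription factors, 12 (34.3%) were nearest to a member, and among 33 genes that earlier literature names as p63 targets, 8 (24.2%). The lists overlap, since TP63 for one stands on both of these. Epithelial factors also have more intergenic sequence to their name, with a median of 104 kb per gene, and the p63-bound genes 47.1 kb, against 15.9 kb over all genes. Counted per Mb of that sequence, the density was 4.41 (2.47 to 7.27; 15 members) around the epithelial factors and 4.52 (2.17 to 8.32; 10 members) around the p63-bound genes, next to 1.30 over all genes. Canonical p53 targets (4.72) and AP-1 and immediate early genes (4.71) stood as high. Basal adhesion and keratin genes, at 2.82 (0.582 to 8.25), were not separated from all genes. The lists were drawn up with earlier results of these data known, so these are descriptions and no test was made. When both flanking genes within 100 kb were counted, the share over all genes was 6.50%, with 12 of the 35 epithelial factors and 10 of the 33 p63-bound genes.

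The members near epithelial transcription factors included ETS factors, a nuclear receptor and Grainyhead factors. The member 22.331 kb from EHF, an epithelial ETS factor, had 20 tags and a fold of 25.53, and the member 39.579 kb from the related ELF3 had 16 and 5 tags and a fold of 20.42. The retinoid receptor gene RXRA had a member 2.28 kb away with 25 and 7 tags (fold 20.4) and another 34.436 kb away with 8 tags (fold 10.89). Of these, the ELF3 peak and the nearer RXRA peak were matched in replicate 2, and the EHF peak was not. BHLHE40, SOX9 (2 members), TBX3, PITX1, CEBPA, GRHL3 and GRHL2 had members of 8 to 18 tags and folds of 9.66 to 25.32 with no match. TP63 itself had 1 member, 87.181 kb on its 5′ side, with 12 tags and a fold of 9.98, not matched.

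Of the p63-bound genes, RIPK4, a kinase of epidermal differentiation, had a member at chr21:41727430-41727850, 11.735 kb away, with 22 tags and a fold of 36.33, not matched. PERP, a desmosomal protein gene activated by both p53 and p63, had a pair of members on its 3′ side. The farther, at 74.375 kb, had 15 tags in replicate 1 and 4 in replicate 2 (fold 25.95), and the nearer, at 53.273 kb, had 12 tags (fold 23.36) and no match. SATB1, a chromatin organiser, had a member of 13 tags (fold 25.95) at 14.498 kb, and ADA, adenosine deaminase, one of 30 tags (fold 21.78) at 26.757 kb. NOTCH1 was nearest to a member of 8 tags (fold 12.05) at 51.442 kb. The stronger peak between NOTCH1 and EGFL7, with 56 tags and a fold of 32.16, lay nearer to EGFL7, at 34.796 kb, and 78.012 kb from NOTCH1.

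Canonical p53 targets were nearest to a member in 5 of 33 cases (15.2%), at 4.72 per Mb (1.73 to 10.3). That density rests on 6 members. Those of CDKN1A and PERP are also counted for the p63-bound list, so the 2 lists are not separate counts. CDKN1A, the p21 cell cycle inhibitor, had a member 9.221 kb on its 5′ side with 19 tags and a fold of 17.33, which lay 6.379 kb from the lncRNA PANDAR. PLK2, a polo-like kinase gene, had one at 2.184 kb with 28 tags in replicate 1 and 4 in replicate 2 (fold 18.94). MDM2, the ubiquitin ligase of p53, had one of 8 tags (fold 14.12) and DRAM1, an autophagy gene, one of 13 tags (fold 17.5). Neither was matched, whereas the PLK2 member and the farther PERP member were.

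AP-1 and immediate early genes were nearest to a member in 5 of 24 cases (20.8%), at 4.71 per Mb (2.03 to 9.28; 8 members, none matched). IER5 had a pair on its 3′ side, with 33 tags (fold 36.76) at 42.26 kb and 17 tags (fold 23.82) at 6.848 kb. MYC, the growth regulator, had a pair as well. The peak at 52.837 kb lay inside the lncRNA gene PVT1 and had 29 tags (fold 22.93), and the other had 15 tags (fold 15.28). FOSL2 and JUN, subunits of the AP-1 factor, had members of 8 to 11 tags with folds of 11.35 to 22.14, and MAF one of 19 tags (fold 21.5).

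Ligand, receptor and regulator genes of the EGF and FGF pathways were nearest to a member in 4 of 24 cases (16.7%). They stood at 1.63 per Mb (0.444 to 4.17), an interval that includes the 1.30 of all genes. TGFA, a ligand of the EGF receptor, had the strongest with 19 tags (fold 27.23), FGF2 one of 11 tags (fold 25.95), EREG one of 8 tags (fold 18.17) and SPRY1 one of 8 tags (fold 10.38). Notch pathway genes had 4 of 29 (13.8%), at NOTCH1, NOTCH2, HES1 and HES4, all with 8 to 10 tags. Cytoskeleton and migration genes had 3 of 28 (10.7%), led by CD44, a hyaluronan receptor, with 14 tags (fold 21.27). By share of genes, though not per Mb, the genes that carry out the basal and differentiated programmes stood nearer to all genes. Basal adhesion and keratin genes had 3 of 35 (8.57%), at ITGB1, PLEC and KRT80 with 8 to 12 tags, and epidermal differentiation genes 3 of 33 (9.09%). On the differentiation list, the keratin gene KRT1 had a member of 23 tags (fold 14.44) at 2.203 kb, KRT10 one of 10 tags (fold 10.21) and LORICRIN, a cornified envelope gene, one of 8 tags (fold 12.38) at 17.437 kb. Per Mb, the densities were 3.78 for Notch, 3.31 for cytoskeleton, 2.82 for basal and 3.57 for differentiation genes, each above the 1.30 of all genes. Basal and differentiation genes had a median of 18.3 and 12.2 kb of sequence per gene, against 104 kb for the epithelial factors. The intervals of these 4 lists on the Mb scale, from 0.582 to 10.4, were wide. They separated none of the 4 from all genes, and they overlap that of the epithelial factors.

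Lists of other tissues were counted in the same way. Melanocyte genes had 2 of 18 nearest to a member (11.1%), fibroblast genes 2 of 24 (8.33%), hepatocyte genes 2 of 27 (7.41%), blood cell genes 1 of 28 (3.57%) and neuronal synapse genes 0 of 29. Per Mb, the melanocyte list stood at 1.70 (0.206 to 6.15), the fibroblast list at 0.999 (0.121 to 3.61), the hepatocyte list at 1.55 (0.187 to 5.58) and the blood list at 1.55 (0.0394 to 8.66). These intervals include the 1.30 of all genes and overlap that of the epithelial factors. Around the neuronal genes 2.37 Mb of sequence held no member, which allows up to 1.56 per Mb and so does not separate them from the 1.30 of all genes. The one matched member among these lists was that near COL5A1, a fibrillar collagen gene, with 21 and 4 tags and a fold of 14.19. YAP1, the growth effector of the Hippo pathway, stood on no list and had a member of 44 tags (fold 28.32), a gene chosen after its values were seen.

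**Figure D4:**
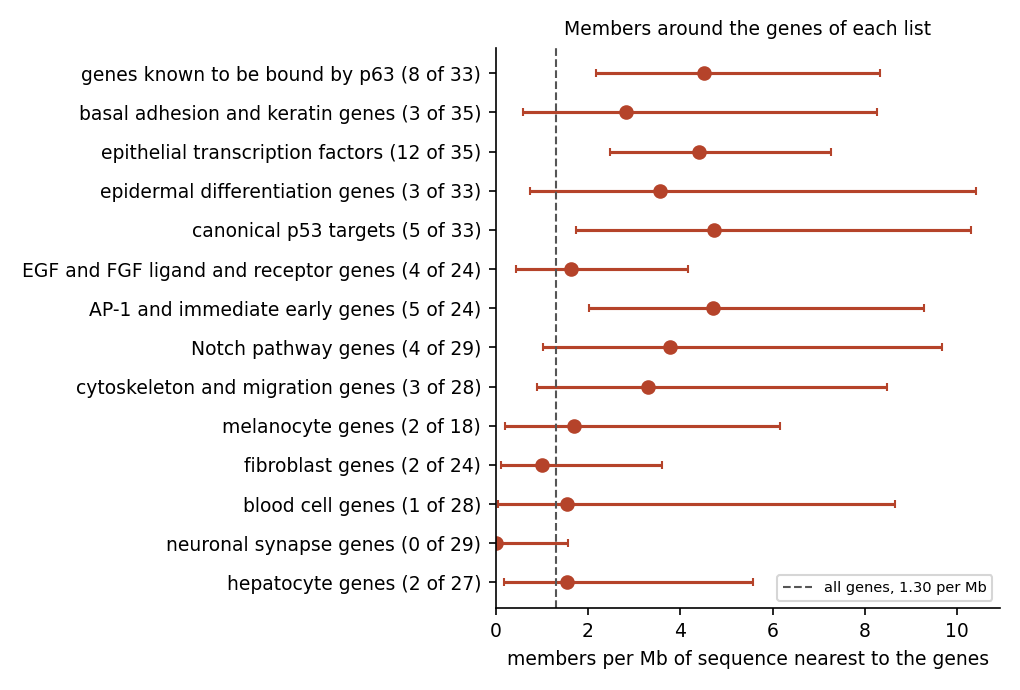
Members per Mb of the intergenic sequence nearest to the genes of each list, with exact Poisson 95% intervals; brackets give the genes nearest to a member of the genes listed, and the dashed line is the 1.30 per Mb of all genes. The lists of p63-bound genes, epithelial transcription factors, canonical p53 targets and AP-1 genes have intervals wholly above the line, and the neuronal list stands at 0 of 29. The p63-bound list shares genes and members with the epithelial and p53 lists, so these are not separate counts.

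Non-coding genes held members about as often as their share of sequence. The summit lay in a non-coding RefSeq gene for 236 members (24.2%, 21.6 to 27.0), of which 195 were in lncRNA genes, and such genes cover 24.5% of the sequence open to members. The median fold was 14.59 inside these genes and 14.665 outside them. Of the 20 members of highest fold, 7 lay in non-coding genes, among them the DCP1A, LCA5, SYK and SPTLC1 members, the last inside LINC00475. Of 29 lncRNA and miRNA genes on a list tied to p53 family or epithelial biology, 7 (24.1%) held a member or had one within 10 kb, against 2.14% of all 20088 lncRNA and miRNA genes in the table. That list was also drawn up with earlier results known. Its median gene length was 7.03 kb, against 7.57 kb over all such genes. Long genes have more room for a member, and this share was not counted per Mb. A member lay inside MIR34AHG, PVT1, LINC00511 (9 tags, fold 12.71), TP53TG1 (9 tags, fold 14.66) and CDKN2B-AS1, the antisense lncRNA of a cell cycle inhibitor locus (10 tags, fold 21.81). NEAT1 and PANDAR were the 2 with a member nearby, and the NEAT1 member was the only one of the 7 matched in replicate 2.

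Most members stood alone. Of 13069 intergenic intervals, 856 (6.55%) held a member, 759 of them a single one, 78 a pair and 19 at least 3. Another replicate 1 summit lay within 10 kb of 55 members (5.64%, 4.35 to 7.26). The fullest interval, of 74.009 kb between OR2Z1 and ZNF558 on chromosome 19, held 5 members with 12 to 24 tags, folds of only 7.09 to 10.84 and no match. The next fullest were 2 intervals with 4 members each in the chromosome 8 group. A different picture was seen around RNF144B, an E3 ubiquitin ligase gene, which was nearest to 5 members with folds of 21.89, 21.04, 19.6, 14.66 and 11.21 and 9 to 22 tags. The RNF144B members spanned both sides of the gene, and the peaks of 21.89 and 19.6 fold were each matched by 5 tags in replicate 2. ANXA2, a membrane-binding annexin gene, was nearest to 3 members with folds of 29.78, 18.76 and 13.71, and the strongest, with 19 tags, was matched by 10 tags.

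Chromosomes differed widely in member density. It was highest on chromosome 9, with 72 members at 2.35 per Mb (1.84 to 2.96), followed by 17 at 2.01 (1.46 to 2.70), and lowest on chromosome 18, with 4 members at 0.219 per Mb (0.0595 to 0.560), X at 0.369 and 4 at 0.479. Chromosome 9 also held 16 of the 71 matched members, while chromosome 8, with 69 members, held none. Matched members lay on only 15 of the 23 chromosomes. Peaks inside genes stood at 1.90 per Mb on chromosome 9 and 0.238 on chromosome 18. They were densest on chromosome 20, at 1.99, and chromosome 22 differed, with 1.81 members (1.07 to 2.85) and 1.04 peaks inside genes per Mb. Over the 23 chromosomes the densities of members and of peaks inside genes had a Pearson r of 0.83 and a Spearman rho of 0.78, a description in which both come from the same library.

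**Figure D5:**
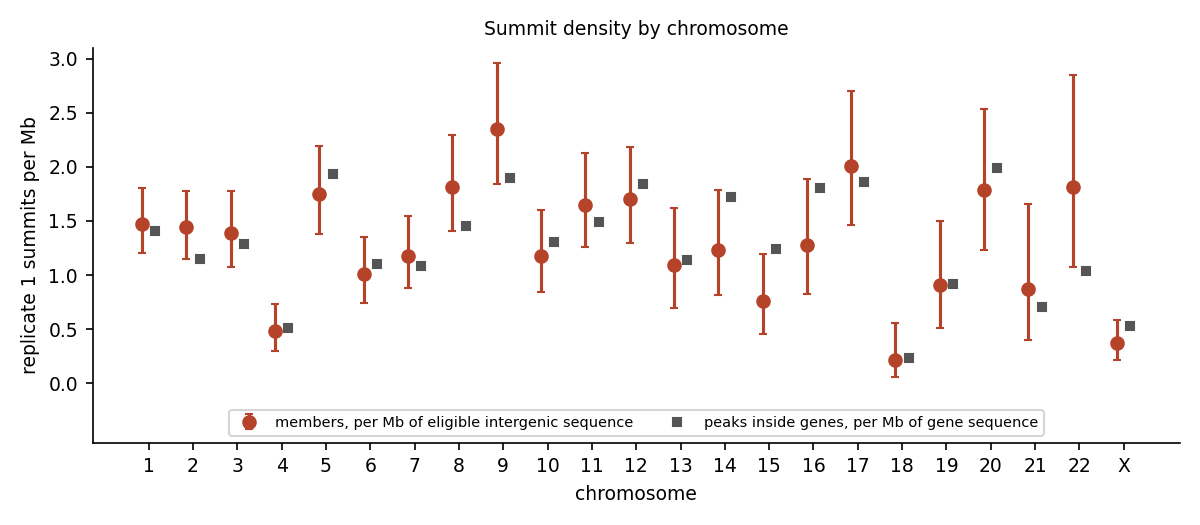
Replicate 1 summits per Mb on each chromosome, for members per Mb of intergenic sequence open to them (red circles, exact Poisson 95% intervals) and for peaks inside genes per Mb of gene sequence (grey squares). Both are high on chromosome 9 (2.35 and 1.90 per Mb) and low on chromosome 18 (0.219 and 0.238).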

How the data were processed

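p63 ChIP-seq peaks of HSC-5 cells were analysed from the authors' lists for IP replicates 1 and 2. Per the file headers, each list was called by itself against 1 control with MACS 1.4.2, with 1 tag kept per position and a p cut-off of 1e-05; FastQC, Trimmomatic and Bowtie are named in the submitters' processing notes. The deposited tag count of a peak is not normalised, the deposited fold is the ratio of IP to scaled local control, the deposited score is minus 10 times log10 of the p-value, and the authors' false discovery rate is in percent. Replicate 1 was read as GRCh38, although the notes name hg19, because it holds contigs named as in GRCh38; replicate 2 was left unplaced, and builds were not converted.

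Replicate 1 held 22139487 IP tags (12687447 kept), against 28327222 control tags kept, and replicate 2 held 4089280 (868393 kept). Summits were classed by distance to RefSeq GRCh38.p14 protein-coding spans. Replicate peaks under 1 kb wide were matched when at least 2 further pairs, 2 kb to 10 Mb away, had the same summit offset (up to 5 Mb) to within 100 bp; the code was tested on simulated pairs, and accidental pairs in the real lists were not estimated. Shares have Wilson and densities exact Poisson 95% intervals. Python 3.11.15, pandas 2.3.3, numpy 2.4.6, scipy 1.17.1 and matplotlib 3.10.9 were used.

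Members and lists were chosen with earlier results of these data known. Named members were those of highest fold or tags, best matched, nearest to list genes, in the fullest intervals, in non-coding genes or with an authors' remark. The members near 1 list gene are not reported here by name. Of the list symbols, 1 was not matched to the gene table and 1 was matched by an older name. Alternatives tried were score, fold, width and distance limits, other matching settings, flanking genes and other gene spans.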

Additional observations from a re-analysis of the deposited data

How the results depend on the processing

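Only 160 of the 976 members had a score of 100 or more, and this limit moved most values. Their median fold was 25.9, 27.7% were matched, 1.88% had a neighbour within 10 kb, 16 list genes in place of 49 were nearest to one (4.24% of them, against 0.771% of all genes), and the density at 2 to 10 kb was 2.69 times that at 50 to 100 kb (1.63 to 4.58), against 1.18 (0.985 to 1.42) for all members. With a fold of 10 or more, the median fold was 15.3 and 4.16% had a neighbour. The matched share was 13.8% with 1 supporting pair and 5.68% with a tolerance of 50 bp. Neighbours within 5 kb were seen for 2.97% of members and within 50 kb for 20.8%. Of the members, 20.0% lay in lncRNA genes alone. Leaving out the chromosome 8 peaks, an alternative chosen after seeing the data like the lncRNA one, moved none of the summary values beyond its interval or 1.5 times a count.

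No paired analysis was possible because the inputs' files were not used here and no result comes from a test across samples. Leaving out a replicate gives no value, since the members come from 1 library. Motif counts around all summits were planned and not run, as no genome was at hand. The depth of replicate 2, and the need for further pairs on the same chromosome, limit what an unmatched member shows.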
